A study of Nicotiana tabacum with 36 samples.

Results

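PSP (Nitab4.5_0000116g0440) encodes 3-phosphoserine phosphatase according to the annotation in the study, and it is 1 of the 35519 tobacco genes in the deposited tables. The gene was selected on its measured levels in these libraries, as a hub gene of one co-expression module, whose table in the study lists 50 genes, with higher expression in the cold-susceptible cultivar. Its levels in the cultivars are therefore described here without a test. The response to cold within each cultivar was tested. The study built the co-expression network only from genes it had called at 1 or more times of cold in TT or YT. A called response to cold was thus part of the choice of PSP, and its tests here are not independent of that choice.

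The libraries came from leaves of Nicotiana tabacum seedlings at the five-leaf stage, with 3 biological replicates for each of 12 groups and 36 libraries in all. Leaves were taken from Taiyan8 (TT), which is susceptible to cold, and from Yanyan97 (YT), which resists it, at 0, 0.5, 1, 2, 4 and 8 h of 4 °C. The labels give growth on medium in days of 16 h light and nights of 8 h, at 22 °C by day and 20 °C by night and 65% humidity, whereas the methods of the study give a warmer and more humid incubator. No warm plants of matching hours were analysed here, so cold and time of day cannot be told apart in any comparison with 0 h, and p-values measure the spread between the labelled triplicates.

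Plants make serine by more than one route. Photorespiration in leaves supplies much of it in the light, and the phosphorylated pathway in plastids starts from the glycolytic intermediate 3-phosphoglycerate. In Arabidopsis, a dehydrogenase oxidizes 3-phosphoglycerate, an aminotransferase makes 3-phosphoserine, and PSP removes the phosphate in the last step and releases serine. Serine then feeds protein synthesis, one-carbon metabolism and the synthesis of cysteine, glycine and tryptophan, and loss of PSP in Arabidopsis is known to impair embryo, pollen and root development. The tables and the reference used here do not pair the other enzymes of the pathway, or leaf marker genes, with Nitab4.5 identifiers, so neither was examined.

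In the Nitab-v4.5 assembly the PSP model lies on chromosome 19, from 64187225 to 64191496 on the minus strand. It spans 4272 bases and has 7 exons with a summed length of 910 bases, which is the only sequence on which reads were counted. The first exon, of 251 bases, lies at 64191246 to 64191496, and the last, of 123 bases, at 64187225 to 64187347. No other model overlaps it (0 models). The nearest model, Nitab4.5_0000116g0410, lies on the plus strand and ends 130 bases from the 3′ end of PSP, and reads were counted without regard to strand. Tobacco is an allotetraploid and reads that mapped to several places were not counted, so a near-identical homeolog could take or remove reads of PSP. Sequence differences between either cultivar and the assembly can act on mapping, and their part in the values was not tested.

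PSP was expressed at a high and nearly constant level in TT and at a low level in YT. Over the 18 TT libraries it had 19.2 to 28.5 CPM (reads per 1e6 counted reads, with library totals scaled by TMM factors), with a median of 23.4 CPM. Over the 18 YT libraries it had 0.451 to 3.47 CPM, with a median of 1.51 CPM. The ranges did not overlap, and the lowest TT library was 5.52 times the highest YT library. In bulk leaf RNA, fewer cells with the transcript and less transcript per cell cannot be told apart.

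The libraries of TT lay close together at every time point. TT had 27.8, 23.5 and 27.9 CPM at 0 h, 20.2, 28.5 and 23.1 CPM at 0.5 h, and 20.4, 24.7 and 24.8 CPM at 1 h. It had 23.3, 22.4 and 24.3 CPM at 2 h, 28.3, 24.6 and 21.7 CPM at 4 h, and 23.1, 19.2 and 23.2 CPM at 8 h. The lowest library was at 8 h and the highest at 0.5 h. All 3 libraries at 8 h lay below all 3 at 0 h, and every other pair of time points overlapped. These levels rest on 428 to 719 reads per library. The coefficient of variation between replicates was 4.23 to 17.5%, where counting error alone gives 3.92% at 0 h and 4.44% at 2 h.

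The libraries of YT lay far lower at every time point. YT had 0.992, 1.34 and 0.981 CPM at 0 h, 1.02, 1.33 and 1.39 CPM at 0.5 h, and 0.864, 1.35 and 2.25 CPM at 1 h. It had 1.72, 2.37 and 2.45 CPM at 2 h, 2.14, 3.47 and 0.451 CPM at 4 h, and 1.62, 2.22 and 3.06 CPM at 8 h. Every library at 2 h and at 8 h was above every library at 0 h, whereas the groups at 1 h and 4 h overlapped with 0 h. The YT levels rest on few reads, 7 to 85 per library, and counting error alone gives a coefficient of variation of 13.7 to 18.3%, against an observed 16.0 to 74.9%.

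**Figure D1:**
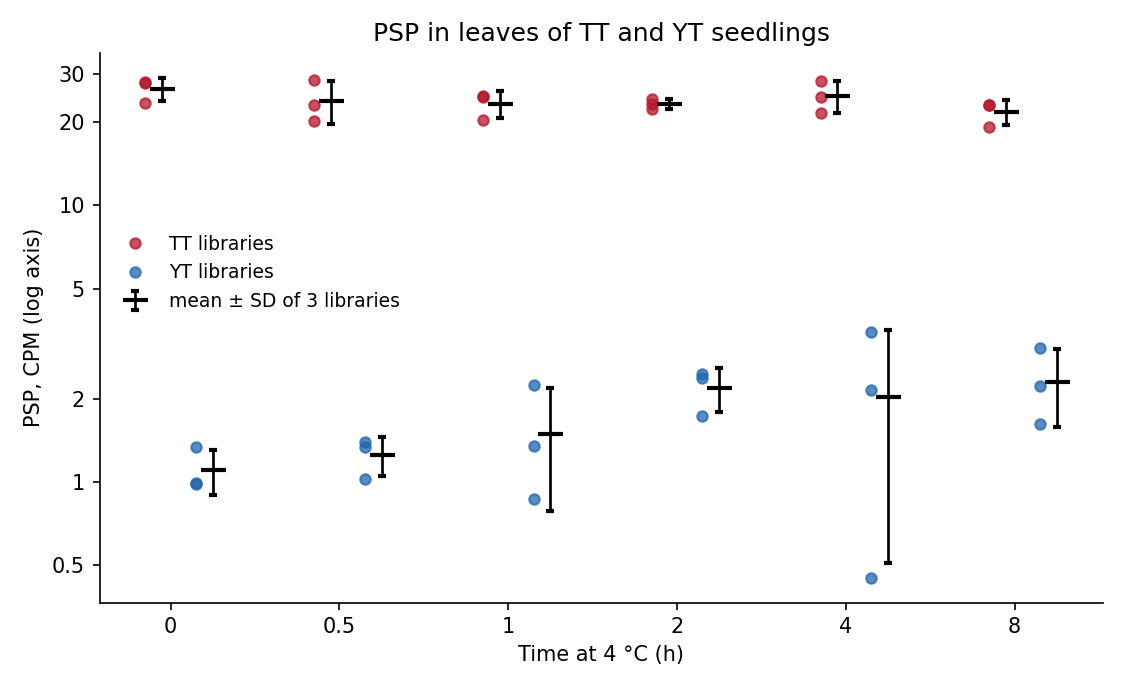
PSP in each library (points, CPM on a log axis) against time at 4 °C, with TT left of YT at each time point and bars for the mean ± SD of 3 libraries. The TT libraries sit between 19.2 and 28.5 CPM and the YT libraries between 0.451 and 3.47 CPM, and the lowest point is YT 4 h replicate 3.

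The library with the lowest value was YT 4 h replicate 3, which had 7 reads of PSP. It was also the shallowest library of the series, with 15484160 counts on genes where the other libraries had 22239372 to 26691552. At the mean level of the other replicates of its group, 2.81 CPM, a library of its total would hold 43.5 reads of PSP. Over all genes its mean correlation with its own group (0.956 for log2 values) was as high as that of the other replicates (0.953 in both). The part of its depth in the low PSP value was not tested, and results that rest on it are given with and without it.

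The order of the 12 group means ran from TT 0 h with 26.4 ± 2.54 CPM (SD, n = 3 here and below) through TT 4 h with 24.8 ± 3.31, TT 0.5 h with 23.9 ± 4.19, TT 2 h with 23.3 ± 0.988 and TT 1 h with 23.3 ± 2.55 to TT 8 h with 21.8 ± 2.27 CPM. Then came YT 8 h with 2.30 ± 0.723 CPM, YT 2 h with 2.18 ± 0.400, YT 4 h with 2.02 ± 1.51, YT 1 h with 1.49 ± 0.703, YT 0.5 h with 1.25 ± 0.200 and YT 0 h with 1.10 ± 0.203 CPM. Each pair of neighbours in this order overlapped, except TT 8 h and YT 8 h. The TT means thus spanned a factor of 1.21 and the YT means a factor of 2.08. On this scale TT was highest and YT lowest before the cold.

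The deposited TPM values, which are also scaled for transcript length, also put every TT library above every YT library, but ordered the time points otherwise. In TT the highest mean was 32.7 TPM at 0.5 h, and the mean at 0 h was 30.4 TPM, below 30.97 TPM at 4 h and 30.95 TPM at 1 h. In YT the highest mean was 3.18 TPM at 2 h, beside 3.15 TPM at 8 h, and the lowest was 1.71 TPM at 0 h. TT averaged 29.8 TPM over its libraries, with a range from 21.5 to 38.1 TPM. YT averaged 2.51 TPM, with a range from 0.582 to 4.82 TPM. Within a library, PSP stood above 79.7 to 86.1% of all genes in TT and above 40.9 to 56.1% of all genes in YT, a share that includes the many genes listed at 0.

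On the CPM scale the cultivar difference was largest before the cold and smallest at 8 h, and the test of that change is given below. The ratio of the mean CPM of TT over YT was 23.9 before the cold and then 19.2 after 0.5 h, 15.7 after 1 h, 10.7 after 2 h, 12.3 after 4 h and 9.48 after 8 h. On the TPM scale the ratio was largest at 0.5 h (18.4, against 17.8 at 0 h) and smallest at 2 h (8.47, against 8.48 at 8 h). Fitted on all genes together, the log2 difference of TT over YT was 4.57 ± 0.37 (SE) before the cold and then 4.26 ± 0.36 after 0.5 h, 3.97 ± 0.35 after 1 h, 3.42 ± 0.34 after 2 h, 3.56 ± 0.35 after 4 h and 3.24 ± 0.34 after 8 h. PSP lay above 98.9 to 99.5% of the 23740 tested genes in this difference at each time point. Because the gene was chosen as TT-higher, these values carry no p and are read as a description. Calls of genes needed both an adjusted p under 0.05 and a log2 fold change of more than 1 in either direction. By that rule the share of all tested genes that were TT-higher was 2.6% before the cold and then 2.68% after 0.5 h, 2.79% after 1 h, 2.22% after 2 h, 2.57% after 4 h and 1.92% after 8 h, and 0.425% (101 genes, PSP among them) were TT-higher throughout.

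Of the variance of the log2 values of PSP over the 36 libraries, 94.0% lay between the cultivars, 0.590% between time points, 1.18% in the cultivar-by-time term and 4.20% between replicates. Across all tested genes the medians were 4.21%, 34.3%, 11.9% and 37.4%. The first share follows from the choice of the gene, and it leaves little for the other terms, so the small share of time is no separate result.

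In TT no change of PSP in the cold was called. The log2 fold change against 0 h was −0.14 after 0.5 h, −0.18 after 1 h, −0.18 after 2 h, −0.09 after 4 h and −0.28 after 8 h, each with an SE of 0.30 and with adjusted p-values from 0.494 to 0.853. In these comparisons the shares of all tested genes that were called were, in the same order, 6.3%, 7.45%, 14.4%, 15.5% and 21.2%. The 95% intervals reached from a log2 fold change of −0.89 to 0.52 at their widest, so changes between a level of 0.541 and one of 1.44 times that at 0 h lie within at least one of them. On the CPM scale, the mean at 8 h was 0.826 times the mean at 0 h.

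In YT the PSP level was higher at 8 h than at 0 h. The means were 2.30 CPM at 8 h and 1.10 CPM at 0 h, a log2 fold change of 1.06 ± 0.36 (SE; 95% interval 0.32 to 1.80; adjusted p = 0.0235), and all 3 libraries at 8 h were above all 3 at 0 h. This was the only call among the 23 comparisons within or across cultivars, in a comparison where 9.94% of all tested genes were called higher and 17.3% in either direction, and its size lies just past the fold threshold of 1. At 2 h the log2 fold change was 0.98 ± 0.36 (adjusted p = 0.0659) and at 4 h 0.92 ± 0.37 (adjusted p = 0.0658), and neither was called, where 7.91% of all tested genes were called at 2 h and 12.6% at 4 h. The values at 0.5 h and 1 h were 0.17 and 0.42, with adjusted p-values of 0.931 and 0.653, where 1.57% and 3.93% of all genes were called. The network drew on genes called in the cold, as stated above, so these p-values are not independent of the choice of PSP.

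The calls in YT depend on single libraries. Without YT 4 h replicate 3 the change at 4 h was 1.34 (adjusted p = 0.000979) and passed, and without YT 4 h replicate 2 the change at 2 h was 1.01 (adjusted p = 0.0292) and passed. The call at 8 h was lost without YT 0 h replicate 1 (0.99, adjusted p = 0.0772), without YT 0 h replicate 3 (0.98, adjusted p = 0.0787) and without YT 8 h replicate 3 (0.79, adjusted p = 0.141). With DESeq2 the change at 2 h was also called (1.00, adjusted p = 0.0233). With limma on log2(TPM + 1) the change at 8 h was 0.59 and was not called (adjusted p = 0.119).

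**Figure D2:**
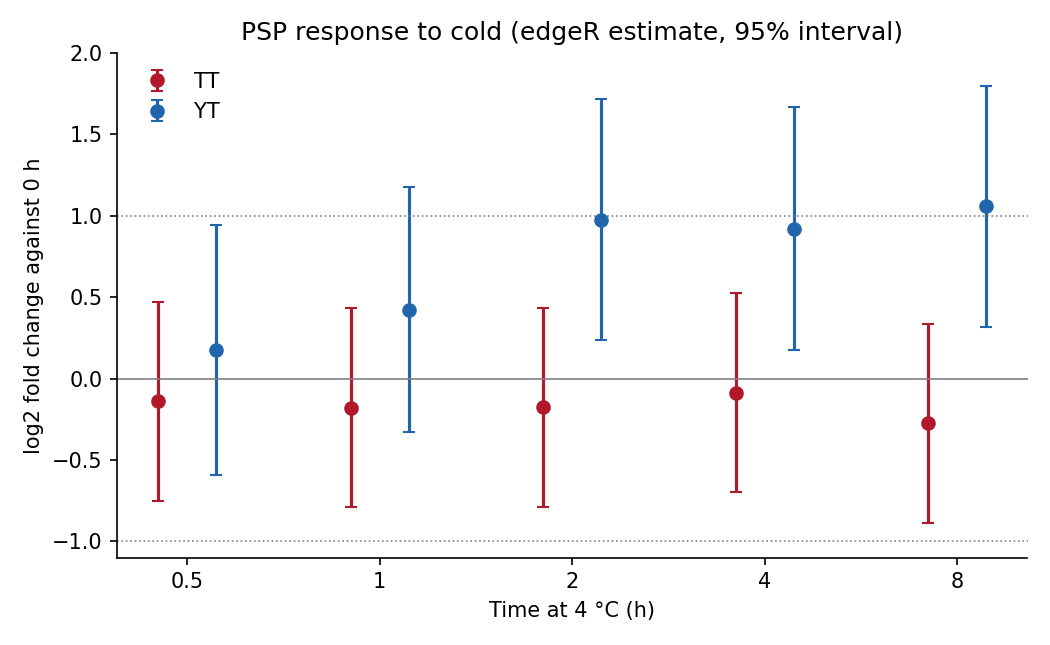
The log2 fold change of PSP against 0 h (edgeR estimate, points, with 95% intervals as bars) at each time of cold, TT left of YT, with dotted lines at the fold threshold of 1 in each direction. All 5 TT intervals include 0, and the YT intervals at 2, 4 and 8 h lie above 0 before adjustment over genes.

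From one time point to the next, no change of PSP was called in either cultivar. In TT the 4 steps after 0.5 h had log2 fold changes of −0.04 up to 1 h, 0.0024 up to 2 h, 0.09 up to 4 h and −0.19 up to 8 h, with adjusted p-values of at least 0.791, where 0.0295%, 6.36%, 1.78% and 3.25% of all tested genes were called. In YT the steps were 0.25 up to 1 h, 0.55 up to 2 h, −0.06 up to 4 h and 0.14 up to 8 h, with adjusted p-values of at least 0.388, where 0.135%, 5.29%, 7.04% and 1.6% of all tested genes were called. The YT step that ended at 2 h was the largest of the 8 and stood above 89.3% of all tested genes.

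The response to cold in TT minus that in YT was negative at each time point. It was −0.31 after 0.5 h (adjusted p = 0.754), −0.60 after 1 h (adjusted p = 0.672), −1.15 ± 0.47 (SE) after 2 h (adjusted p = 0.163), −1.01 ± 0.47 after 4 h (adjusted p = 0.226) and −1.33 ± 0.47 after 8 h (adjusted p = 0.0748), and none was called. Over all tested genes 1.57%, 0.114%, 1.98%, 0.918% and 4.55% were called, in the same order. The call of PSP at 8 h in YT is thus not shown to differ from TT by this fit. DESeq2 called the difference at 8 h (−1.33, adjusted p = 0.0317). Fits without YT 4 h replicate 3 called it at 4 h (−1.43, adjusted p = 0.0439) and at 8 h (−1.33, adjusted p = 0.022). Fits without YT 4 h replicate 2 (−1.35, adjusted p = 0.0461) or without YT 8 h replicate 1 (−1.53, adjusted p = 0.0423) also called it at 8 h.

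In absolute terms the change in YT was small beside the level of TT. The YT mean gained 1.20 CPM by 8 h, and the TT mean exceeded the YT mean by 25.3 CPM at 0 h and by 19.5 CPM at 8 h. At the end of the series YT thus still had a mean of 2.30 CPM, against a lowest TT library of 19.2 CPM.

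Of the 100 other genes TT-higher at all 6 time points, 19 had at most 3 reads in every YT library, and 40 averaged 1 CPM or more in YT before the cold, as PSP did with 1.10 CPM. At 8 h of cold in YT, 11 of the 100 rose and 10 fell, with a median log2 change of 0, where 9.94% of all tested genes rose and 7.33% fell. Of the 40, 2 rose and 8 fell, with a median log2 change of −0.57. The cultivar difference was narrower at 8 h in 20 of the 40, as it was in PSP. Since all these genes had to remain TT-higher at 8 h, the counts are a description. Those of the 100 were near the shares of all genes. The 40 were picked on their YT level at 0 h, the baseline of this change, and such a pick by itself favours a fall. Their lean to a fall is therefore not read as a contrast with the rise of PSP.

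On the scaffold that carries PSP, no other tested gene was TT-higher or YT-higher at all 6 time points, and few tested genes anywhere were. The 10 nearest tested genes, 5 on each side over 406 kb, included 3 with a call at 1 or more time points, against 16.8% of all tested genes, and 0 with calls at all 6. Of the 40 other tested genes of the scaffold that carries PSP, 8 were called at 1 or more time points and none at more than 3. Of 1921 other tested genes on the chromosome, 8 were TT-higher at all 6 time points (0.425% of all tested genes were) and 0 YT-higher (0.649% of all tested genes were), and the nearest TT-higher one was Nitab4.5_0001102g0040, 2.06 Mb away.

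The convergent neighbour Nitab4.5_0000116g0410 was the one with the most calls. Its log2 difference of TT over YT was 1.33 at 0 h (adjusted p = 0.0182), 1.49 at 2 h (adjusted p = 0.0135) and 1.36 at 8 h (adjusted p = 0.0253), and it was 0.48 to 0.78 at the times without a call. Its mean level was 5.84 TPM in TT and 3.83 TPM in YT. Its 3 calls were lost under limma on TPM, the calls at 2 h and 8 h when only the libraries compared were fitted, and each call in 2 to 5 of the 36 fits without 1 library. Whether reads of one gene were counted on the other was not tested.

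The other neighbours had at most 1 call each. Nitab4.5_0000116g0400 was YT-higher at 4 h (−2.93, adjusted p = 0.0457), as were 4.17% of all tested genes, and Nitab4.5_0000116g0500 was so at 0.5 h (−1.50, adjusted p = 0.00235), as were 1.83%. The call of Nitab4.5_0000116g0400 was lost when any of several single libraries was left out, with a value of −2.02 (adjusted p = 0.251) without YT 4 h replicate 1. Nitab4.5_0000116g0430, with at most 44 reads in a TT library and 19 in a YT library, had differences of 0.25 to 1.14, none called. Nitab4.5_0000116g0450 and Nitab4.5_0000116g0420, the next models beyond the 5′ end of PSP, had differences of −0.50 to −0.13 and −0.33 to 0.36. Nitab4.5_0000116g0470, Nitab4.5_0000116g0460, Nitab4.5_0000116g0370 and Nitab4.5_0000116g0390 were not called at any time point.

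**Figure D3:**
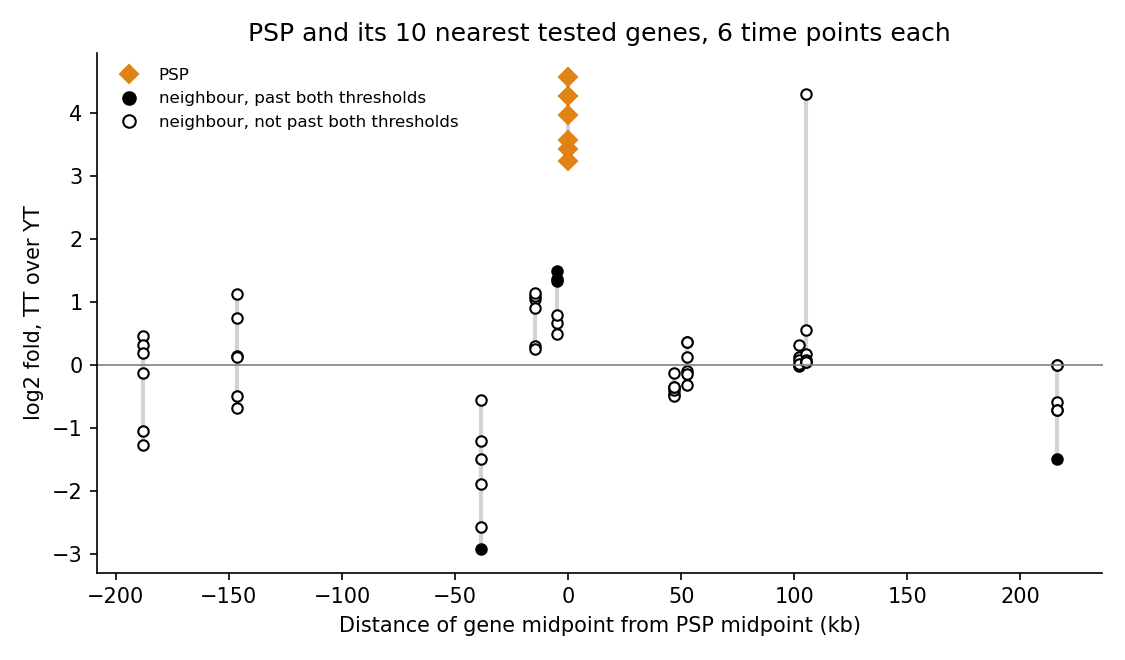
The log2 fold of TT over YT of PSP (diamonds) and its 10 nearest tested genes (circles, filled where past both thresholds), 1 point for each of 6 time points, against distance from PSP in kb. PSP sits between 3.24 and 4.57, and the single open circle near 4.3 is Nitab4.5_0000116g0460 at 0 h, a gene with at most 22 reads in any library.

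Likeness to PSP was measured as Pearson's r of log2 CPM over the 36 libraries, among the 20414 genes that averaged 1 CPM or more. The libraries share cultivar and time course, so r is a description with no p. The 5 highest values belonged to genes that were on in TT and nearly off in YT. They were Nitab4.5_0001840g0060, annotated PAP10, a purple acid phosphatase (r = 0.977), Nitab4.5_0002315g0030, annotated as an anthranilate synthase beta subunit, which feeds tryptophan synthesis (r = 0.973), Nitab4.5_0001840g0050 (r = 0.972), Nitab4.5_0007178g0020, annotated as a Mutator-like transposase (r = 0.972), and Nitab4.5_0002315g0010, annotated ARR12, a response regulator of cytokinin signalling in Arabidopsis (r = 0.972).

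These genes differed from PSP on the YT side. Nitab4.5_0002315g0030 averaged 21.02 TPM in TT and 0.00548 TPM in YT, with at most 2 reads in any YT library. Nitab4.5_0001840g0060 averaged 34.1 TPM in TT and 0.0340 TPM in YT, with at most 7 reads in a YT library. PSP, with 2.51 TPM in YT, was measured in all 18 YT libraries. The lowest r belonged to Nitab4.5_0000194g0050 (−0.982), Nitab4.5_0004554g0030 (−0.971) and Nitab4.5_0001088g0150 (−0.966), which were listed at or near 0 TPM in TT and averaged 8.37, 6.80 and 1.74 TPM in YT.

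After the mean of each cultivar was subtracted, little likeness remained. The highest r were 0.70 for Nitab4.5_0000125g0160, 0.60 for Nitab4.5_0001458g0070, 0.58 for Nitab4.5_0004251g0040, 0.57 for Nitab4.5_0000568g0290 and 0.56 for Nitab4.5_0002046g0190, and 31 genes were above 0.5. The lowest were −0.67 for Nitab4.5_0000003g0380, −0.63 for Nitab4.5_0000194g0050 and −0.62 for Nitab4.5_0004692g0050. None of the first 5 had a cultivar difference at all 6 time points, and few tested genes did (0.425% TT-higher and 0.649% YT-higher throughout). Nitab4.5_0000568g0290 averaged 39.97 TPM in TT and 47.4 TPM in YT, and its log2 change at 8 h was −0.27 in TT and 1.85 in YT. The lists themselves changed with the measure: only 1 to 5 of these 8 genes returned under other measures or without 1 replicate number.

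Among the 49 other hub genes listed with PSP, a table that the study chose on these samples, PSP belonged to the smaller of 2 groups. In 10 genes r with PSP was positive (0.938 to 0.977) and in 39 it was negative (−0.966 to −0.826). The positive genes were TT-higher at all 6 time points in 9 of 10 cases and the negative genes YT-higher at all 6 in 34 of 39, where 0.425 and 0.649% of all tested genes were so called. Since 94.0% of the variance of PSP lay between the cultivars, the sign of r mostly restates the direction of a gene's cultivar difference. These counts are therefore no separate result. The hub genes with the lowest r were Nitab4.5_0001740g0070, annotated as a HIT-type zinc finger protein (−0.966), and Nitab4.5_0001740g0020, annotated as a UDP-glycosyltransferase (−0.961). PSP was the only gene of the table on chromosome 19 (0 of the 49 others), which holds 1921 other genes of the 23740 tested. The 49 lay on 12 of the 24 chromosomes.

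With the cultivar means subtracted, the hub genes shared little with PSP. Their median r was 0.04, with a range from −0.30 to 0.48, beside a median of −0.002 over all genes examined. At 8 h of cold in YT, 1 of the 49 rose and 0 fell, where 9.94% and 7.33% of all tested genes did so, and in TT 2 rose and 2 fell, where 21.2% of all tested genes changed. The one that rose in YT was Nitab4.5_0001840g0060, whose YT level was close to 0 throughout.

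**Figure D4:**
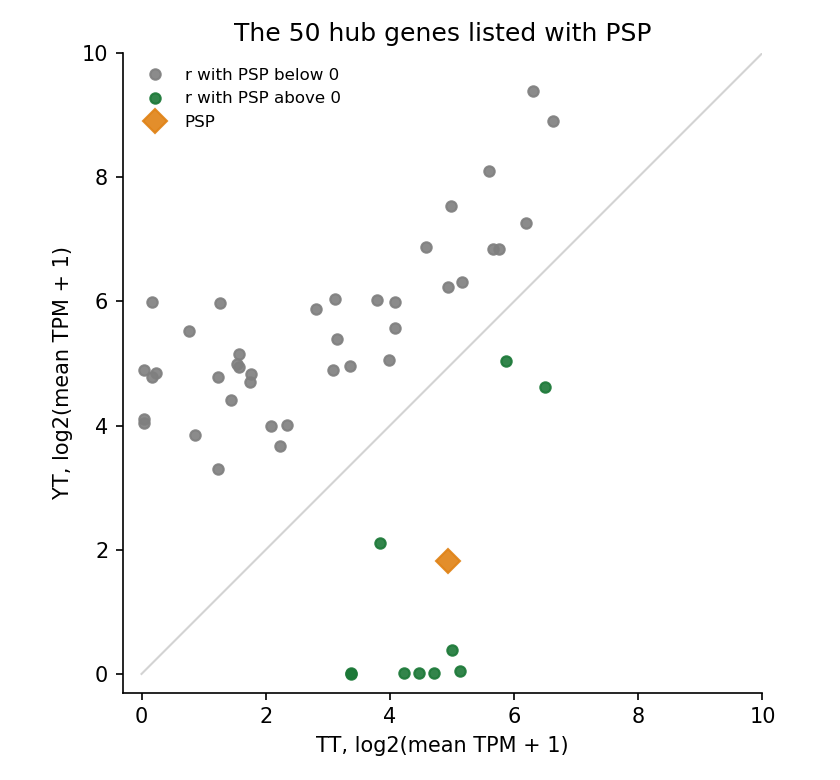
Mean TPM in TT (horizontal) and in YT (vertical), as log2(TPM + 1), of the 50 hub genes listed with PSP, with a diagonal where both are equal. PSP (diamond, 29.8 TPM in TT and 2.51 TPM in YT) lies below the diagonal with the 10 genes of positive r, of which 7 lie under 0.5 TPM in YT, and the 39 genes of negative r lie above it.

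The hub table holds 9 other genes annotated to amino acid or nitrogen metabolism, which fell on both sides of the cultivar difference. Of the 9, 5 were YT-higher at all 6 time points and 1 was TT-higher, beside 34 and 9 of the 49 other hub genes and 0.649% and 0.425% of all tested genes. None of the 9 passed both thresholds at 8 h of cold, where 21.2% of all tested genes did in TT and 17.3% in YT. Nitab4.5_0000138g0050, the H protein of the glycine cleavage system, which acts beside serine hydroxymethyltransferase in photorespiratory serine synthesis, averaged 1.34 TPM in TT and 26.7 TPM in YT. Nitab4.5_0000363g0020, annotated PII, a plastid sensor of carbon and nitrogen status, averaged 0.691 TPM in TT and 45.0 TPM in YT. The other YT-higher members were Nitab4.5_0000206g0170, a pterin-4-alpha-carbinolamine dehydratase (6.03 TPM in TT and 57.8 TPM in YT), Nitab4.5_0000143g0350, an isoleucyl-tRNA synthetase (7.84 TPM in TT and 41.2 TPM in YT), and Nitab4.5_0000143g0260, the fumarylacetoacetase of tyrosine breakdown (15.9 TPM in TT and 46.5 TPM in YT).

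Both copies annotated as beta subunits of anthranilate synthase were in this list, in opposite directions. Nitab4.5_0002315g0030 was TT-higher at all 6 time points, as given above. Nitab4.5_0001478g0080, annotated ASB1, averaged 14.8 TPM in TT and 32.1 TPM in YT and was called YT-higher at 3 of the 6 time points. Nitab4.5_0000302g0060, annotated AGD2, an aminotransferase of lysine synthesis (71.7 TPM in TT and 152 TPM in YT), was called YT-higher at 1 time point. Nitab4.5_0000628g0100, Xaa-Pro aminopeptidase 2 (53.2 TPM in TT and 114 TPM in YT), was called YT-higher at 2 time points.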

How the data were processed

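Leaf mRNA of 36 libraries was sequenced, and the sample labels alone gave each library its group. The authors used FastQC 0.11.5, Trim Galore 0.6.4, HISAT2 2.0.5 and SAMtools 1.9, and kept alignments with a mapping quality of at least 20. Raw counts per gene were deposited, which the authors took on the Nitab-v4.5 models by featureCounts 1.6.4, unstranded and without multi-mapping reads. StringTie 1.3.4d gave the authors the TPM values they deposited. The exon length of each model is a further deposited column.

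The main test was the quasi-likelihood F test of edgeR 4.0.16 in R 4.3.3, fitted to all 36 libraries with 12 group terms, TMM factors and the 23740 genes that passed filterByExpr. P-values are two-sided and adjusted by Benjamini-Hochberg over all tested genes in each comparison. The thresholds for a call (1 for the size of the log2 fold change, 0.05 for the adjusted p) are those of the study, which used DESeq2. For CPM the TMM factors were applied, with a prior count of 2 on the log2 scale. Library totals were 15484160 to 26691552. Alternatives were DESeq2 1.42.0, DESeq2 size factors, no filter, only the libraries compared, a replicate block, limma 3.58.1 on log2(TPM + 1) or log2(TPM + 0.1), and leaving out each library in turn. Plots were drawn with matplotlib 3.10.9. The count tests were tested on simulated data.

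PSP, the lists and the tests were chosen with earlier results of these data known. Named genes were PSP, its 5 nearest tested genes on each side, the 5 highest and 3 lowest genes by r with and without the cultivar means, the 9 amino acid genes of the hub table, and the 2 hub genes with the highest and the 2 with the lowest r. Nitab4.5_0001102g0040 was named after its values were seen. No sequence of the gene was used here.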

Additional observations from a re-analysis of the deposited data

Results flagged for a closer look

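For this, 34 genes were examined. No difference in response between the cultivars passed for PSP, its 10 neighbours or the 9 amino acid genes. Among the genes named for their likeness to PSP, 3 had a response to cold that differed between the cultivars by the interaction term of the edgeR fit. The share of all tested genes called by this term lay between 0.114% at 1 h and 4.55% at 8 h, with 1.98% at 2 h. Nitab4.5_0001840g0060, annotated PAP10, had a difference of −5.85 at 8 h (TT minus YT, log2, adjusted p = 0.0201), from changes of −0.59 in TT and 5.25 in YT. Its YT libraries held at most 7 reads, so this fitted value depends on the prior count and is no measure of size. Nitab4.5_0001840g0050 had −2.78 at 8 h (adjusted p = 0.0151), from 0.58 in TT and 3.36 in YT, with at most 33 reads in a YT library. Nitab4.5_0000568g0290 had −1.37 at 2 h (adjusted p = 0.0422), from −0.11 in TT and 1.26 in YT, and −2.12 at 8 h (adjusted p = 0.00128), from −0.27 in TT and 1.85 in YT. It had up to 1217 reads in a TT library and 2090 in a YT library. Without 1 library, the difference of Nitab4.5_0001840g0060 was not called in 2 of 36 fits (without YT 0 h replicate 3, adjusted p = 0.0585, or YT 8 h replicate 2, adjusted p = 0.0977), nor that of Nitab4.5_0001840g0050 in 2 of 36 (without YT 0 h replicate 1, adjusted p = 0.0576, or YT 8 h replicate 2, adjusted p = 0.0599). That of Nitab4.5_0000568g0290 was not called at 2 h in 10 of 36 fits (adjusted p up to 0.122), and at 8 h it was called in all 36. With limma on log2(TPM + 1) the values at 8 h were −0.84 for Nitab4.5_0001840g0060 (adjusted p = 0.0624) and −0.069 for Nitab4.5_0001840g0050 (adjusted p = 0.891), and that of Nitab4.5_0000568g0290 at 2 h was −1.21 (adjusted p = 0.0667), none of them called. With log2(TPM + 0.1) Nitab4.5_0001840g0050 (adjusted p = 0.0671) and Nitab4.5_0000568g0290 at 2 h (adjusted p = 0.064) were not called, and with only the libraries compared Nitab4.5_0001840g0060 was not called (adjusted p = 0.0563). All 3 genes were picked for their likeness to PSP over these same libraries, Nitab4.5_0000568g0290 with the cultivar means subtracted, so their p-values are no independent evidence of a difference in response. Groups of 3 are too small for a check of single outlying libraries.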

How the results depend on the processing

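The cultivar difference of PSP kept its direction at all 6 time points under every alternative run, and it was smaller on the TPM scale with a pseudocount. With limma on log2(TPM + 1) it was 3.53 before the cold, 3.59 after 0.5 h, 3.24 after 1 h, 2.74 after 2 h and 2.77 after 8 h. It was the same with all genes above 0. With log2(TPM + 0.1) it was 4.08 at 0 h and 3.05 at 2 h. A pseudocount lowers the ratio of a gene with few reads by construction. Without one, the ratio of mean TPM (17.8 at 0 h and 8.47 at 2 h) was also below that of mean CPM (23.9 and 10.7). The parts of scale and pseudocount were not tested. The rise in YT at 8 h was not called when only the libraries compared were fitted (1.09, adjusted p = 0.0999) or with limma on log2(TPM + 1) (0.59, adjusted p = 0.119; 0.135 with all genes above 0) or log2(TPM + 0.1) (0.81, adjusted p = 0.131), and the cause was not tested. DESeq2 added a call in YT at 2 h (1.00) and in the difference in response at 8 h (−1.33), and fits of only the libraries compared called that difference at 2 h (−1.19, adjusted p = 0.0418) and at 8 h (−1.33, adjusted p = 0.0464). With DESeq2's size factors in edgeR, with no filter and with a replicate block no call of PSP changed.

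Leaving out 1 library at a time, the YT change ranged from 0.79 to 1.25 at 8 h (called in 33 of 36 fits), from 0.34 to 1.34 at 4 h and from 0.89 to 1.14 at 2 h, and the difference in response from −1.53 to −1.07 at 8 h and from −1.43 to −0.39 at 4 h. Values that were not called changed sign in places. Under limma with a pseudocount of 1 (both gene sets), TT at 0.5, 1 and 4 h had 0.10, 0.028 and 0.032, and with 0.1 it had 0.11, 0.029 and 0.033. The difference in response at 0.5 h was then 0.059 and 0.035. The TT step up to 2 h was −0.0089 with DESeq2, −0.0088 with its size factors, −0.024 with only the libraries compared, and −0.20 and −0.21 with limma. Across fits without 1 library, changes ranged from −0.19 to 0.0034 in TT at 4 h and from −0.00077 to 0.70 in YT at 1 h. The steps in TT ranged from −0.15 to 0.11 up to 1 h, −0.087 to 0.050 up to 2 h and −0.013 to 0.18 up to 4 h. Those in YT ranged from −0.17 to 0.53 up to 1 h, −0.68 to 0.37 up to 4 h and −0.29 to 0.75 up to 8 h. None of these was called.

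Fits of only the libraries compared called 5 of the 10 neighbours at 1 or more time points, against 3. Of the 8 genes most like PSP, 3 returned with log2(TPM + 1) and 4 with Spearman's rho, and 4 to 6 without 1 replicate number. After the cultivar means were subtracted, 5 returned with either measure and 1 to 4 without 1 replicate number.

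No effect shared by libraries of equal replicate number was seen, which cannot settle whether the numbers pair samples. Deviations from the group means had a median correlation of 0.00323 over 198 pairs of equal number, with 28 pairs over 0.1. Over 396 pairs of unequal number the median was −0.00187, with 59 pairs over 0.1. With the replicate block the YT change at 8 h was 1.05 (adjusted p = 0.0256).

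Depth limits the YT values, which rest on 7 to 85 reads per library, and the smallest detectable change was not computed. The intervals cover the spread among triplicates, not between separate experiments.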
